A study of Homo sapiens with 8 samples.

Results

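SMARCA4-null HAP1 cells were compared with wildtype HAP1 cells over the 13459 genes that held at least 1000 reads in all 8 libraries together, of 19541 genes that the authors' deposited table lists. HAP1 is a near-haploid human line that grows attached and descends from a chronic myeloid leukaemia line, so that 1 guide-directed cut can remove a gene's sole copy. The wildtype group was 1 line sampled at passages 9 and 12. The SMARCA4_Null group was 2 samples at passage 12, each made with a different CRISPR guide, and the labels do not say whether either is a single clone. The series also held 2 SMARCB1_Null samples at passage 12 from 2 guides and a SMARCB1-SMARCA4_Null line sampled at passages 15 and 18, and both are used only as context. RNA was taken from cells at 70% confluence, and polyadenylated transcripts were sequenced from stranded libraries. The wildtype pair differs by passage and the SMARCA4-null pair by guide, so the spread within a group has a different source in each.

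SMARCA4, also known as BRG1, is 1 of a pair of mutually exclusive ATPases of the SWI/SNF (BAF) complexes, which slide and evict nucleosomes and so open enhancers and promoters. SMARCA2 (BRM) is the other ATPase, and SMARCB1 (SNF5) is a core subunit that contacts the nucleosome. SMARCA4 is lost in several human cancers, among them small cell carcinoma of the ovary of hypercalcaemic type.

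The deposited values are, per gene, a sum of reads over the 8 libraries, a ratio of each null to wildtype, a p-value and a false discovery rate (FDR). A gene is called here where its FDR, taken from the authors' deposited table, was under 0.05. For 2124 of the 13459 genes the ratios and the total could be solved for a whole number of reads in each library, and these are given as depth-corrected reads, that is reads scaled to the mean library depth. The 2 libraries of a group can then be told apart only as the deeper and the shallower, not by guide or passage. The wildtype libraries held about 81800000 and 68300000 reads and the SMARCA4-null libraries about 92300000 and 71500000. For all other genes an implied level is given, the group mean of depth-corrected reads that the total and the 3 ratios imply. Over the recovered genes it was off by a median of 0.262% in wildtype, and by 3.57% at the 95th percentile.

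The targeted gene was checked first. SMARCA4 had an implied level of 45497 in wildtype and 4174 in the SMARCA4 null, a ratio of 0.0918 with an FDR of 1.7e-79 per the authors' deposited table. The ratio was 0.947 in the SMARCB1 null (FDR 0.639) and 0.152 in the double null (FDR 5.56e-78) per the authors' deposited table. The alternative ATPase gene SMARCA2 had a ratio of 1.05 (FDR 0.972) per the authors' deposited table, at implied levels of 3705 in wildtype and 3890 in the null. SMARCB1 had a ratio of 0.97 (FDR 0.979) per the authors' deposited table. Of 17 blood-cell markers in the table, 4, including the pan-leukocyte gene PTPRC and the myeloid factor gene SPI1, had an implied level below 1 in wildtype. All 17 summed to 8559 in wildtype and 3928 in the null, of which the blood factor gene TAL1 made up 4684 and 981.

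Of the 13459 genes, 1849 were called per the authors' deposited table, which is 13.7%. The SMARCA4 null was higher for 1120 of them, 8.32% of all, and lower for 729, or 5.42%. Called changes of at least 2-fold numbered 342 higher (2.54%) and 172 lower (1.28%), and those of at least 10-fold 37 higher (0.275%) and 39 lower (0.29%). The median log2 ratio was 0.69 among genes called higher and -0.48 among those called lower, against 0.03 over all 13459 genes. The 5th and 95th percentiles of all log2 ratios were -0.70 and 1.08. Among the called genes with the largest rises, the sodium channel gene SCN3A went from an implied level of 11.1 to 15451 (FDR 0.0101). The membrane repair gene MYOF went from 18 to 11719 (FDR 0.00432), and the receptor gene PDGFRA from 138 to 18252 (FDR 7.8e-12). The ratios of SCN3A, MYOF and PDGFRA were 331, 210 and 7.25 in the SMARCB1 null (FDR 0.0538, 0.0248 and 0.0346). In the double null they were 808, 514 and 45 (FDR 0.015, 0.00463 and 2.17e-07), all per the authors' deposited table. Of the deepest falls, the prostaglandin dehydrogenase gene HPGD went from an implied level of 4518 to 1.54 and the neprilysin gene MME from 2294 to 1.73. Their total reads were 8740 and 4488, so both passed the minimum on reads only through the wildtype group. Just outside the threshold on reads lay TOB1-AS1 and KY, with 998.5 and 999 total reads, and just inside it PCDHB9 and FUT1, with 1000 and 1001.

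**Figure D1:**
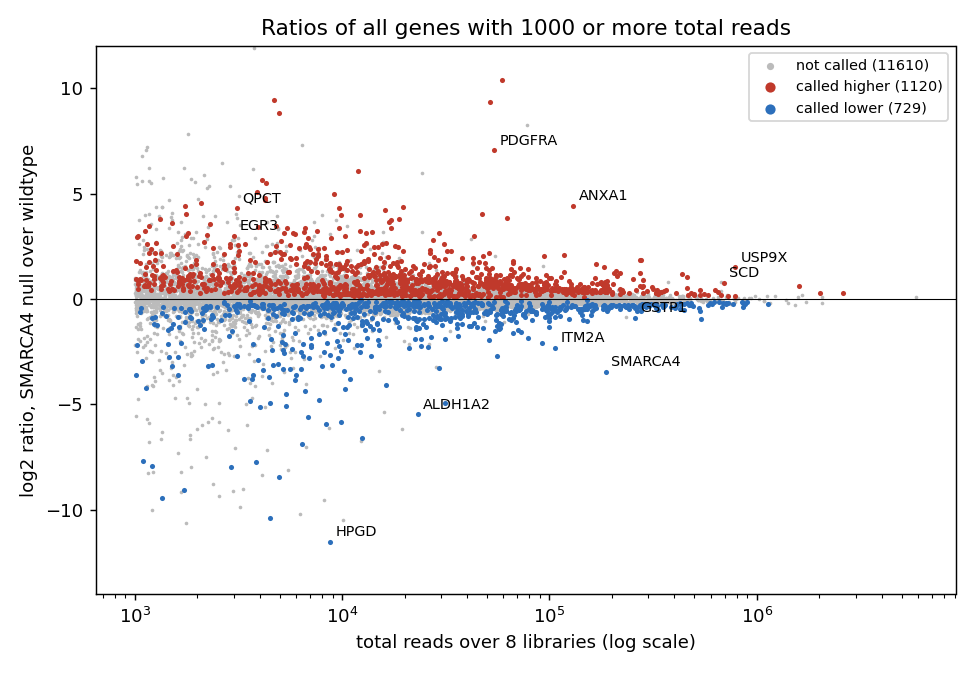
Each point is 1 of the 13459 genes, with its total reads over the 8 libraries on a log axis and the log2 ratio of the SMARCA4 null over wildtype from the authors' deposited table. The 1120 genes called higher are red, the 729 called lower blue and the others grey, and SMARCA4 lies among the genes of high read number that fell.

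The reads of single libraries show how far the groups stood apart. Among the 2124 recovered genes, 192 (9.04%) were called higher and 117 (5.51%) lower per the authors' deposited table, and in all of them both libraries of the null lay on 1 side of both wildtype libraries. Without regard to calls, both null libraries lay above both wildtype libraries in 37.9% of recovered genes and below them in 29.3%. Over the 2031 of these genes with a mean of at least 100 depth-corrected reads, the wildtype libraries differed by a median of 0.11 on the log2 scale, the null libraries by 0.10 and the group means by 0.19. A quasi-likelihood test with edgeR on the recovered reads, adjusted by Benjamini and Hochberg, called 485 of 2097 genes, 23.1%, of which 303 were higher (14.4%) and 182 lower (8.68%). With TMM scaling it called 249 higher and 234 lower, and DESeq2, which differs in both test and scaling, called 275 and 316. Leaving out the deeper or the shallower wildtype library left 86 and 68 calls, and leaving out the deeper or the shallower SMARCA4-null library 119 and 91.

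Of the genes with the smallest FDR, QPCT, H2AFY2 and ENDOD1 rose and had recovered reads. QPCT, which encodes the enzyme that cyclises N-terminal glutamine, went from 29.9 and 26.6 depth-corrected reads in the wildtype libraries to 605 and 517 in the null. The edgeR log2 change was 4.31 ± 0.226 (2 libraries per group, adjusted p = 1.9e-08 by edgeR). The ± value, here and below, is the size of the log2 change divided by the square root of the quasi-likelihood F statistic. It is not a directly estimated standard error, and the fit draws its spread from all 8 libraries. H2AFY2, the gene of the repressive histone variant macroH2A2, rose from 537 and 526 to 3174 and 3393 depth-corrected reads (edgeR log2 change 2.63 ± 0.0893, adjusted p = 1.97e-10). ENDOD1 went from 1333 and 1335 to 2974 and 2847 depth-corrected reads, a ratio of 2.18 with an FDR of 3.32e-75 per the authors' deposited table. These genes were chosen by their small FDR in this same comparison, so close pairs and distant groups follow from that choice.

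USP9X, an X-linked deubiquitinase gene, had the smallest FDR among genes that rose, 2.38e-146, at a ratio of 2.86 per the authors' deposited table. Its implied level went from 50288 to 143754. LBR, the lamin B receptor that tethers heterochromatin to the nuclear envelope, had the smallest FDR among genes that fell, 1.73e-173, at a ratio of 0.596 per the authors' deposited table. Total reads over the 8 libraries were 785107 for USP9X and 157818 for LBR. The fall of STAG2, a cohesin subunit gene, was smaller, with a ratio of 0.843 and an FDR of 1.09e-47 per the authors' deposited table. VRK1, a kinase gene of chromatin and the nuclear envelope, stood at 0.728 (FDR 1.8e-32) and GSTP1, a glutathione transferase gene, at 0.539 (FDR 2.31e-27) per the authors' deposited table. HMGN2, whose protein binds nucleosomes and which has many processed copies that can share its reads, had a ratio of 0.527 (FDR 1.05e-49) per the authors' deposited table.

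Among genes with many reads, PRDX6, a peroxidase gene, rose from 19791 and 21925 to 48061 and 47848 depth-corrected reads. Its ratio of 2.3 had an FDR of 0.000441 per the authors' deposited table, while edgeR gave an adjusted p of 0.074. SMS, spermine synthase, had a ratio of 2.07 (FDR 2.92e-05) per the authors' deposited table. The cytoskeletal gene ACTG1 stood at 1.51 (FDR 1.37e-21) and the spectrin gene SPTBN1 at 1.5 (FDR 8.67e-12) per the authors' deposited table. UHRF1, which brings the maintenance DNA methyltransferase to replicated DNA, fell to a ratio of 0.591 (FDR 1.51e-09) per the authors' deposited table. The ubiquitin-conjugating enzyme gene UBE2E3 stood at 0.502 (FDR 1.71e-20) per the authors' deposited table.

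Some further recovered genes with large changes were chosen after their values were seen. NPY1R, a neuropeptide Y receptor gene, fell from 519 and 533 to 95.7 and 59.5 depth-corrected reads. SERPINF1, the gene of pigment epithelium-derived factor, went from 696 and 895 to 218 and 259 depth-corrected reads (edgeR adjusted p = 4.3e-05). For these genes and for TCF15, a mesoderm factor gene, both null libraries lay under both wildtype libraries. PTPN21, a phosphatase gene, rose from 364 and 349 to 1675 and 1712 (edgeR adjusted p = 1.74e-08). PROC, which encodes the anticoagulant protein C, rose from 36.6 and 31.2 to 347 and 402. With 1624, 1669 and 1169 total reads, NPY1R, TCF15 and PROC passed the minimum only through the group where they were high. No test is given for these genes. MAN2A1, a Golgi mannosidase gene, rose from 5857 and 5440 to 12392 and 12437 depth-corrected reads (edgeR log2 change 1.14 ± 0.0832, adjusted p = 8.27e-07).

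**Figure D2:**
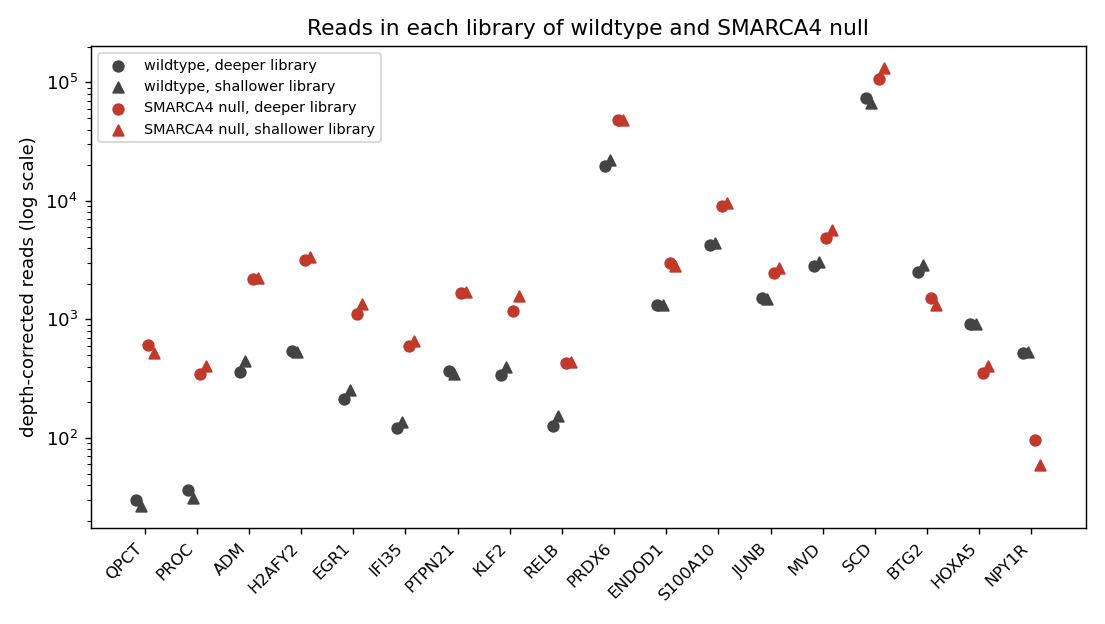
Depth-corrected reads, on a log axis, of 18 genes in the 2 wildtype libraries (dark) and the 2 SMARCA4-null libraries (red), with circles for the deeper and triangles for the shallower library of each pair. In every gene shown both null libraries lie on 1 side of both wildtype libraries, as for QPCT with 29.9 and 26.6 against 605 and 517.

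Genes of the oxygen response were called higher in the SMARCA4 null. When oxygen is short, the factors HIF1A and EPAS1 are no longer hydroxylated by the EGLN enzymes and turn on genes of glycolysis, angiogenesis and matrix. Of 31 measured members of the list, 15 (48.4%) rose and 0 fell, and the median log2 ratio was 0.65. Over all 13459 genes 8.32% were called higher and 5.42% lower. DDIT4, which restrains mTORC1, had a ratio of 7.83 with an FDR of 5.9e-19 per the authors' deposited table. LOX, the collagen-crosslinking oxidase gene, stood at 6.27 (FDR 1.61e-08) per the authors' deposited table. The vasodilator gene ADM rose from 357 and 442 to 2200 and 2252 depth-corrected reads (edgeR adjusted p = 1.74e-08), with no overlap between the pairs. Its FDR was 0.000195 per the authors' deposited table. PFKFB4, a regulator of glycolytic flux, had a ratio of 4.81 (FDR 4.69e-05) per the authors' deposited table, against 1.51 (FDR 0.626) in the SMARCB1 null and 2.24 (FDR 0.108) in the double null. Of the 31 genes, 3 were higher and 0 lower in the SMARCB1 null, and 4 were higher and 3 lower in the double null. In those comparisons, which share the same wildtype libraries, 8.86% and 12.6% of all 13459 genes were called higher and 6.84% and 7.66% lower. Among 17 glycolytic enzyme genes, 7 were higher and 0 lower in the SMARCA4 null, 4 of them at an FDR under 0.01, with smaller ratios: PFKM 1.4, PGK1 1.33 and GPI 1.3 per the authors' deposited table. PGK1 was the reverse in the double null, with a ratio of 0.751 (FDR 1.88e-05) per the authors' deposited table.

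The core of the HIF site is ACGTG, and it was searched on both strands of the 250 bases before the start of each gene in the RefSeq promoter table of build GRCh38.p14. It occurs in 18.5% of 35116 promoters there. Of the 15 hypoxia genes called higher, 14 matched the table and 6 of them hold it (42.9%), against 10 of the 25 matched members of the list (40%). The 2 windows below belong to the oxygen-response genes with the largest ratios, with the core in capitals, also where it lies on the other strand as CACGT. The coordinates are those of the GRCh38.p14 table and not of hg19, the build named in the submitters' processing notes. DDIT4 lies on the plus strand at chr10:72273674-72273923 and holds the core 1 time, and LOX lies on the minus strand at chr5:122078260-122078509 and holds it 4 times. A match is a description of the letters and not a bound site.
DDIT4: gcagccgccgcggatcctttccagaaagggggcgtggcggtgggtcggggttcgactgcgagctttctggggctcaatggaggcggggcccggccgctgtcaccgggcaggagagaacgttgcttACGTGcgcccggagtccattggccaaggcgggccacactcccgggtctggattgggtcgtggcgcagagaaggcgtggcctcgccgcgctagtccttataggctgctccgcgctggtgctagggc
LOX: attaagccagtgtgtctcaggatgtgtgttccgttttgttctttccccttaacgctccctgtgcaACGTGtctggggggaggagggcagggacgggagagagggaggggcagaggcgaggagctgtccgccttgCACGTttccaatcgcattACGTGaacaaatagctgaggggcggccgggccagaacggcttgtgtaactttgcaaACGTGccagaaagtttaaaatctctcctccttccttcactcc

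**Figure D3:**
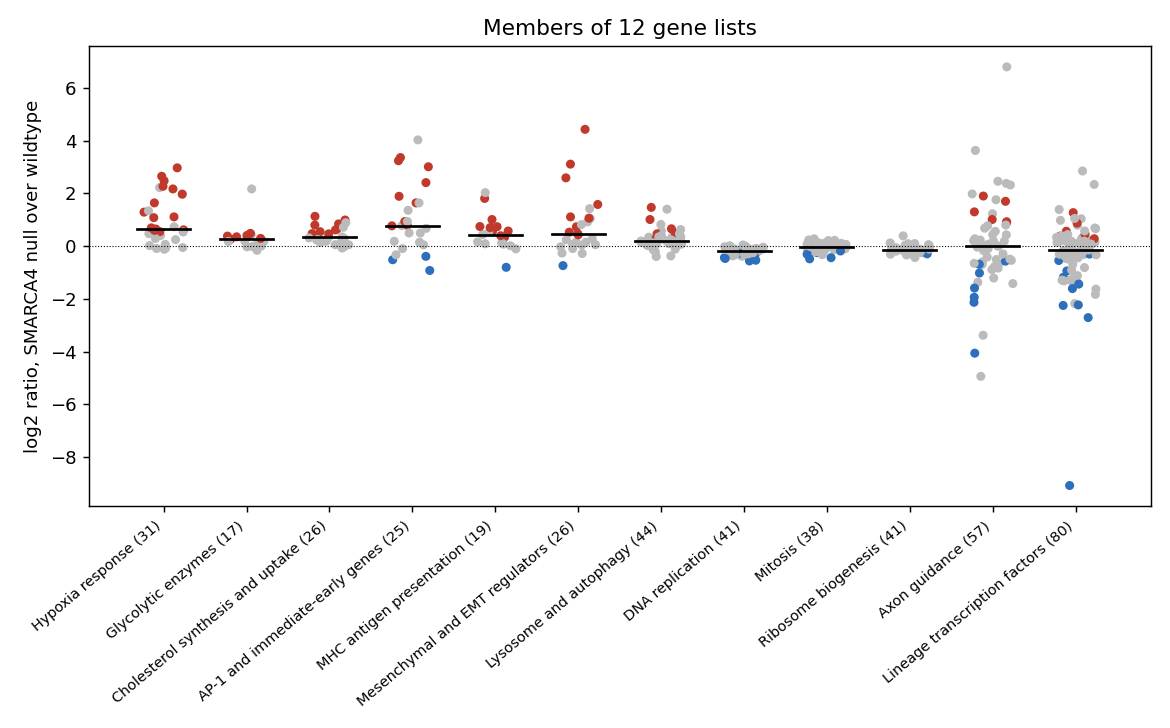
Each point is a measured gene of 1 of 12 lists, placed by its log2 ratio of the SMARCA4 null over wildtype per the authors' deposited table, red where called higher and blue where called lower, with a bar at the list's median. The hypoxia median of 0.65 and the immediate-early median of 0.78 lie above 0, and the DNA replication median of -0.19 lies below it.

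Immediate-early genes, which growth factors and stress switch on within minutes through SRF, ELK and related factors, moved in both directions. Of 25 measured, 9 (36%) rose and 3 (12%) fell, against 8.32% and 5.42% of all 13459 genes. The list's median log2 ratio of 0.78 was the highest of the 12 lists plotted. EGR1 went from 212 and 253 to 1114 and 1349 depth-corrected reads (edgeR adjusted p = 8.27e-07). Its FDR was 0.0119 per the authors' deposited table. FOSL2 and JUN, AP-1 subunit genes, had implied levels of 128 and 319 in wildtype and 1310 and 3023 in the null. EGR3 stood at a ratio of 8.03 (FDR 1.89e-49) per the authors' deposited table, and at 5.58 and 9.39 in the SMARCB1 and double nulls. JUNB, chosen after its values were seen, rose from 1511 and 1478 to 2478 and 2696 depth-corrected reads, and KLF2 from 339 and 399 to 1177 and 1564. In contrast BTG2, an antiproliferative early gene, fell from 2510 and 2892 to 1518 and 1330 (edgeR adjusted p = 4.42e-05). The FDR of BTG2 was 0.00117, and BATF3 had a ratio of 0.699 (FDR 0.000658), per the authors' deposited table. Among 18 genes that ERK signalling induces to limit itself, DUSP5, DUSP10 and SPRY1 rose, at ratios of 3.21, 2.05 and 1.97 per the authors' deposited table. None of those 18 was called lower by the authors' FDR. DUSP7 was not called by it (ratio 0.679, FDR 0.1, per the authors' deposited table). It went from 4002 and 4345 to 2803 and 2867 depth-corrected reads (edgeR adjusted p = 0.000672).

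SRF binds the CArG box, CC followed by a run of A or T and then GG. Of the 9 immediate-early genes called higher, 8 matched the promoter table, and in the 250 bases before the start only EGR1 holds a CArG box (1 of 8, 12.5%), against 1.16% of all promoters. The AP-1 motif TGANTCA was found in 0 of these 8 and in 6.57% of all promoters. The EGR1 window lies on the plus strand at chr5:138465229-138465478 of GRCh38.p14, with its 2 CArG boxes in capitals.
EGR1: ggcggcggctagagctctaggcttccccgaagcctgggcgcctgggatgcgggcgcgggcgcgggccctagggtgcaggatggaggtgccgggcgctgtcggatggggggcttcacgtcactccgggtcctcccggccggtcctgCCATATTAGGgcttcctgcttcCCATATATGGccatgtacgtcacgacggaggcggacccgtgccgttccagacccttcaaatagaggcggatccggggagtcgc

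Of 26 measured genes of the mesenchymal list, which includes calcium-binding S100 proteins, annexins and galectins, 10 (38.5%) rose, 1 fell and 15 were not called. ANXA1, an annexin gene that dampens inflammation, went from an implied level of 2420 to 52034, a ratio of 21.5 with an FDR of 1.43e-79 per the authors' deposited table. S100A11 had a ratio of 8.65 (FDR 1.18e-08), LGALS1 (galectin-1) 6.03 (FDR 0.000675) and S100A4 a ratio of 3 (FDR 4.74e-06) per the authors' deposited table. S100A10, the partner of annexin A2, rose from 4207 and 4445 to 9093 and 9637 depth-corrected reads (edgeR log2 change 1.11 ± 0.0932, adjusted p = 2.92e-06) and was chosen after its values were seen. Per the authors' deposited table, ratios in the SMARCB1 null were 1.44 for ANXA1, 0.921 for S100A11 and 1.03 for LGALS1. S100A4 stood at 1.59 and S100A10 at 0.45 in that null. ANXA1 and S100A4 were also called higher in the double null, at 2.07 (FDR 0.00138) and 3.54 (FDR 2.15e-08) per the authors' deposited table. S100A11 and LGALS1 stood at 0.867 and 1.27 there (FDR 0.899 and 0.843), and S100A10 at 0.414 (FDR 0.000333), per the authors' deposited table. The intermediate filament gene VIM had a ratio of 1.39 (FDR 6.11e-08), and the repressor ZEB2, which drives mesenchymal change in epithelia, fell to 0.599 (FDR 0.0081) per the authors' deposited table. Summed over the 13 fibroblast markers in the table, the implied level was 37307 in wildtype and 70502 in the null, with 2 of them, LUM and PRRX1, under 1 in wildtype and 3 under 1 in the null. Of these sums VIM made up 34682 and 48187, and PDGFRA 138 and 18252. The 21 neuronal markers summed to 10438 in wildtype and 32041 in the null, of which SCN3A made up 11.1 and 15451. The 15 epithelial markers summed to 2891 in wildtype and 3660 in the null, with CDH1, GRHL2 and KRT19 under 1. Whether a mixture of cell states moved with these genes was not tested.

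Genes of lipid supply were called higher more often than lower. Cells make cholesterol under the control of SREBF2, held back by INSIG1 when sterols are plentiful, and fatty acids under SREBF1. Of 26 cholesterol genes 10 (38.5%) were higher and 0 lower, and of 26 genes of fatty acid synthesis and storage 10 (38.5%) were higher and 1 lower. At an FDR under 0.01 the latter 10 became 6. SREBF1 had a ratio of 2.2 (FDR 1.61e-11), INSIG1 of 1.99 (FDR 6.61e-06) and CYP51A1, lanosterol demethylase, of 1.74 (FDR 4.55e-09) per the authors' deposited table. MVD, which makes isopentenyl diphosphate, rose from 2835 and 3047 to 4826 and 5728 depth-corrected reads (edgeR adjusted p = 3.31e-05). Its FDR was 0.00792 per the authors' deposited table. SCD, the stearoyl-CoA desaturase gene, rose from 74163 and 66794 to 107647 and 132568 depth-corrected reads, a ratio of 1.7 (FDR 0.0109) per the authors' deposited table, while edgeR gave an adjusted p of 0.132. Its paralogue SCD5 fell to a ratio of 0.407 (FDR 0.0481) per the authors' deposited table. The acyl-CoA ligase genes ACSL4 and ACSL1 rose to 1.93 (FDR 2.67e-05) and 1.5 (FDR 0.00665) per the authors' deposited table. In the SMARCB1 and double nulls 3 and 2 of the cholesterol genes were higher and 3 and 4 lower.

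Lysosomal genes showed 6 of 44 higher (13.6%) and 0 lower, against 8.32% and 5.42% of all 13459 genes. CTSZ, a cathepsin gene, had a ratio of 2.01 (FDR 7.34e-08) and PSAP, which encodes the saposin precursor, of 1.58 (FDR 5.19e-07) per the authors' deposited table. WIPI1, an autophagosome factor gene, rose from 221 and 211 to 583 and 614 depth-corrected reads (edgeR adjusted p = 0.000308). Its FDR was 0.00298 per the authors' deposited table. Among ATF4 targets and amino acid synthesis genes, 6 of 29 were higher (20.7%) and 0 lower. CHAC1, a glutathione-degrading enzyme gene, stood at 4.34 (FDR 0.0145) and ASNS, asparagine synthetase, at 2 (FDR 3.79e-09) per the authors' deposited table. Of 24 genes of the pentose phosphate route and NRF2 response, 0 were called higher and 2 lower (8.33%). NQO1 fell to 0.497 (FDR 0.0417) and GCLC to 0.632 (FDR 0.0253) per the authors' deposited table. HMOX1 was not called (FDR 0.164 per the authors' deposited table). It went from 426 and 411 to 1097 and 977 depth-corrected reads (edgeR adjusted p = 3.61e-05). Of 239 solute carrier genes, 34 (14.2%) rose and 9 (3.77%) fell. SLC2A5, the fructose transporter, had an implied level of 37.9 in wildtype and 798 in the null, a ratio of 21.1 per the authors' deposited table. With 1747 total reads, SLC2A5 passed the minimum on reads only through the SMARCA4-null group. SLC44A3 stood at 7.89 (FDR 0.00109) and SLC39A8, a zinc and manganese importer gene, at 0.264 (FDR 0.000463) per the authors' deposited table.

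Antigen presentation genes were called higher in 9 of 19 (47.4%) and lower in 1, or higher in 5 at an FDR under 0.01. NLRC5, the transactivator of MHC class I, had a ratio of 3.51 (FDR 0.00206) per the authors' deposited table. The peptide loading gene TAPBP stood at 2.01 (FDR 3.47e-05), TAP1 at 1.68 (FDR 0.0348) and HLA-E, whose reads can be shared with other HLA genes, at 1.67 (FDR 0.0125) per the authors' deposited table. The proteasome activator gene PSME1 fell to 0.573 (FDR 0.00546) per the authors' deposited table. Among 25 interferon and NF-kB genes, 3 were called higher (12%) and 0 lower. Over all 13459 genes the shares were 8.32% and 5.42%. IFI35, an interferon-induced gene, rose from 121 and 135 to 594 and 655 depth-corrected reads (edgeR adjusted p = 9.35e-06). RELB, an NF-kB subunit gene, rose from 126 and 154 to 425 and 435 (edgeR adjusted p = 7.1e-05), and TNFAIP3, which limits NF-kB, had a ratio of 1.8 (FDR 1.42e-10) per the authors' deposited table.

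**Figure D4:**
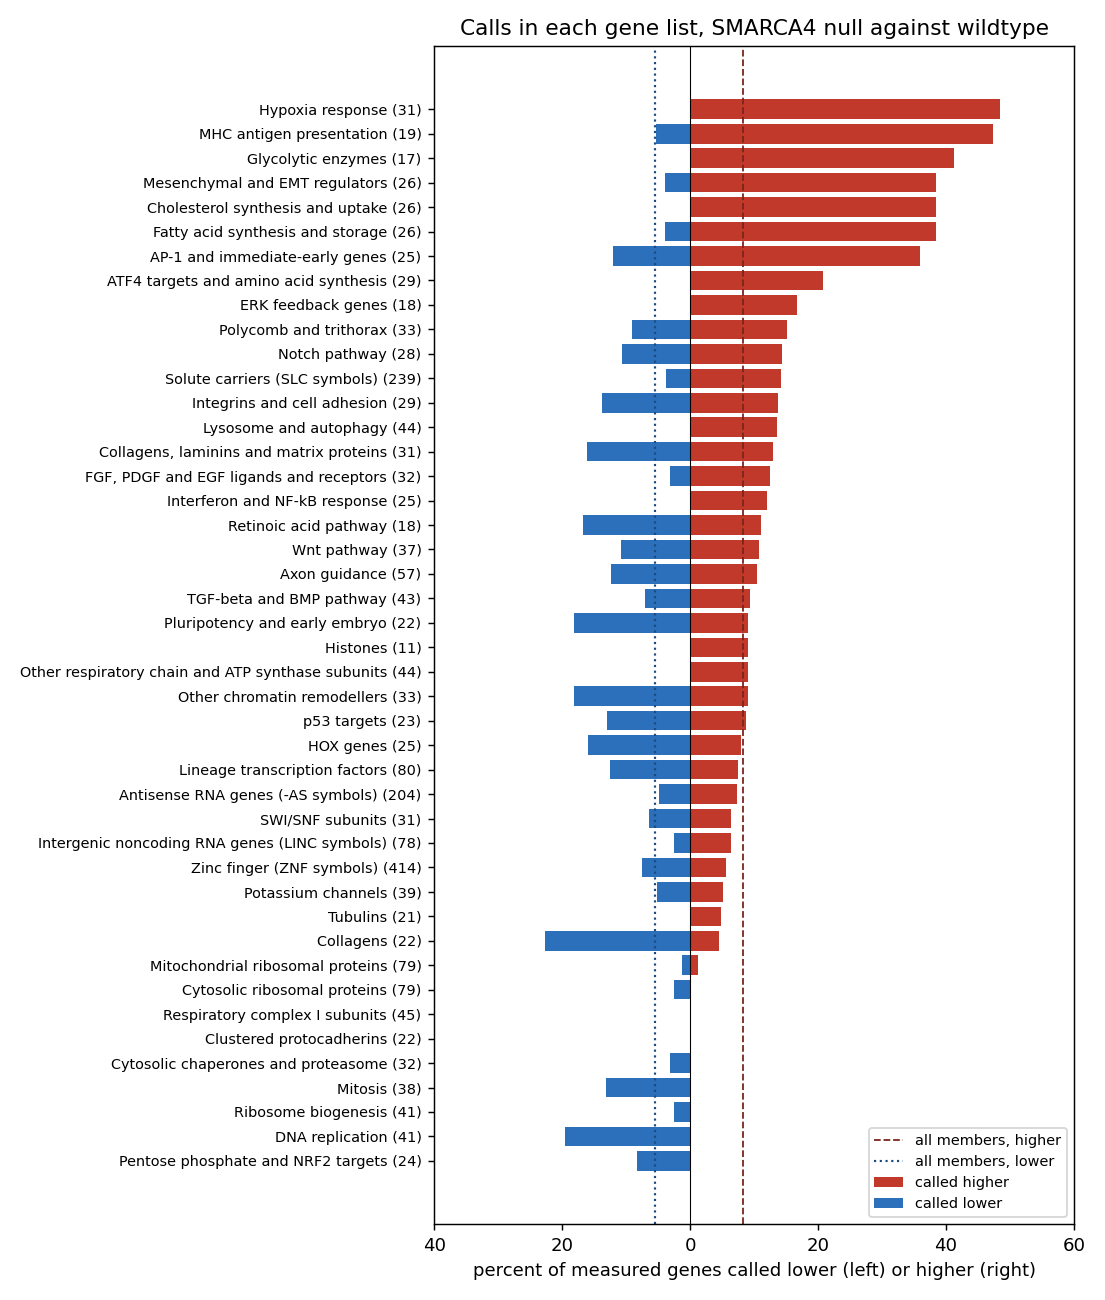
Bars give, for each list, the percent of its measured genes (number in brackets) called higher to the right and called lower to the left in the SMARCA4 null per the authors' deposited table, and the dashed and dotted lines mark 8.32% and 5.42% of all 13459 genes. Hypoxia (48.4% higher) and antigen presentation (47.4% higher) reach farthest to the right.

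Replication and division genes fell where they were called. Of 41 genes of DNA replication, 0 were higher and 8 (19.5%) lower, with a median log2 ratio of -0.19. Over all 13459 genes 5.42% were lower. PCNA, the sliding clamp, had a ratio of 0.691 (FDR 0.000111) and TYMS, thymidylate synthase, of 0.723 (FDR 0.000474) per the authors' deposited table. GINS1, part of the replicative helicase, had a ratio of 0.74 (FDR 1.71e-20) per the authors' deposited table and an edgeR adjusted p of 0.000817. Of 38 mitosis genes 5 fell (13.2%), NDC80 from 14062 and 13740 depth-corrected reads to a ratio of 0.716 (FDR 0.00989) per the authors' deposited table. In the SMARCB1 null 14 mitosis and 4 replication genes were lower, and in the double null 17 and 13. Over all 13459 genes 6.84% were lower in the SMARCB1 null and 7.66% in the double null. Ribosome biogenesis and cytosolic ribosomal protein genes were called in few cases, with 1 of 41 and 2 of 79 lower and 0 higher in each list.

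Chromatin genes were called in both directions. Of the 31 SWI/SNF subunit genes 2 rose and 2 fell, which is 6.45% each way and close to the share of all genes. Besides SMARCA4, PHF10, a subunit of the PBAF form, fell to 0.757 (FDR 0.000337), while GLTSCR1L, a subunit of the non-canonical form, stood at 1.89 (FDR 0.0419) per the authors' deposited table. ACTB, actin that is also a subunit, had a ratio of 1.22 (FDR 9.28e-11) per the authors' deposited table, and its reads and those of ACTG1 can be shared. Among 33 other remodellers 3 rose and 6 (18.2%) fell, BAZ1A to 0.652 (FDR 3.31e-05), CHD7 to 0.693 (FDR 0.000741) and HDAC2 to 0.716 (FDR 8.98e-05) per the authors' deposited table. SMARCA1, an ISWI ATPase gene, rose to 1.38 (FDR 0.000587) per the authors' deposited table. Of 33 Polycomb and trithorax genes 5 rose (15.2%) and 3 fell (9.09%), against 8.32% and 5.42% of all 13459 genes. The PRC2 cofactor AEBP2 fell to 0.496 (FDR 6.68e-07) and CBX2 to 0.604 (FDR 0.000143), and the other cofactor JARID2 rose to 1.63 (FDR 0.0275) per the authors' deposited table. RING1, a Polycomb ubiquitin ligase gene, had a ratio of 1.3 (FDR 1.91e-05) per the authors' deposited table and an edgeR adjusted p of 0.00527.

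Genes of cell signalling were called in both directions. Of the 57 guidance genes 6 were higher (10.5%) and 7 lower (12.3%), against 8.32% and 5.42% of all 13459 genes. Those that fell include 4 genes of Eph receptors, which guide axons and sort cells, a grouping made after the values were seen: EPHA3 to 0.0599 (FDR 1.84e-08), EPHA4 to 0.261 (FDR 5.82e-08), EPHB6 to 0.229 (FDR 0.0198) and EPHB3 to 0.332 (FDR 0.0395) per the authors' deposited table. EPHA4 fell in the SMARCB1 null too, to 0.0238 (FDR 4.78e-07) per the authors' deposited table. The guidance receptor ROBO1 fell to 0.493 (FDR 1.57e-18), while the ligand NTN1 rose to 3.73 (FDR 0.00989) and the receptor PLXNC1 to 3.26 (FDR 1.41e-12) per the authors' deposited table. In the Wnt list of 37 genes 4 were higher and 4 lower, 10.8% each way. The ligand WNT3 had a ratio of 6.89 (FDR 1.4e-15), the co-receptor LRP6 of 2.83 (FDR 4.86e-39) and the receptor FZD10 of 0.0347 (FDR 0.0478) per the authors' deposited table. WNT10B rose from 440 and 427 to 836 and 772 depth-corrected reads (edgeR adjusted p = 0.00263).

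In the TGF-beta and BMP list of 43 genes 4 rose (9.3%) and 3 fell (6.98%), near the 8.32% and 5.42% of all 13459 genes. The BMP target genes ID1 and ID3 rose to ratios of 2.92 (FDR 9.27e-05) and 1.66 (FDR 0.0214), and the receptor genes TGFBR2 and TGFBR1 fell to 0.447 (FDR 0.00218) and 0.679 (FDR 0.0315) per the authors' deposited table. Among 32 genes of growth factors and their tyrosine kinase receptors 4 rose (12.5%) and 1 fell (3.12%). ERBB4, a neuregulin receptor gene, went from an implied level of 32.5 to 651, and its ratios in the SMARCA4, SMARCB1 and double nulls were 20, 55.2 and 69.4 per the authors' deposited table. The hepatocyte growth factor receptor gene MET fell to 0.393 (FDR 1.27e-11), and to 0.341 and 0.0567 in the other nulls per the authors' deposited table. In the Notch list 4 of 28 rose (14.3%) and 3 fell (10.7%). Among them were the target HEY1 at 4.07 (FDR 0.00564) and the ligand DLL1 at 0.218 (FDR 0.0341) per the authors' deposited table. In the retinoic acid list of 18 genes 2 rose (11.1%) and 3 fell (16.7%). ALDH1A2, which makes retinoic acid, fell from an implied level of 9674 to 219, a ratio of 0.0227 (FDR 2.17e-11), and the receptor gene RARB to 0.24 (FDR 0.0295) per the authors' deposited table. The 2 that rose were CYP26A1, at 66.1 (FDR 2.76e-06), and ALDH1A3, at 2.03 (FDR 0.0232), per the authors' deposited table. ALDH1A3 went from an implied level of 1600 to 3245.

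Matrix and adhesion genes changed in both directions. Among 31 matrix genes 4 were higher (12.9%) and 5 lower (16.1%). Among 22 collagen genes 1 was higher and 5 (22.7%) lower. Over all 13459 genes the shares were 8.32% and 5.42%. COL2A1, the cartilage collagen gene, fell to 0.238 (FDR 1.35e-34), LAMA4 to 0.184 (FDR 0.0124) and HSPG2, perlecan, to 0.559 (FDR 0.000222) per the authors' deposited table. The fibrillin gene FBN1 stood at a ratio of 3 (FDR 0.0158) and CYR61, a YAP target, at 3.16 (FDR 0.0142) per the authors' deposited table. ITGA6, a laminin receptor chain, rose to 3.51 (FDR 1.14e-20), and the cadherins CDH2 and CDH6 went opposite ways, to 1.69 (FDR 0.000453) and 0.26 (FDR 1.21e-26) per the authors' deposited table. GPC3, a proteoglycan gene, rose to 3.18 (FDR 5.98e-68), and stood at 0.314 and 0.0843 in the SMARCB1 and double nulls per the authors' deposited table.

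Lineage transcription factor genes were called lower in 10 of 80 (12.5%) and higher in 6 (7.5%), against 5.42% and 8.32% of all 13459 genes. TAL1, a blood and endothelial factor, fell to 0.21 (FDR 1.76e-07), SOX8 to 0.212 (FDR 0.00105) and SOX6 to 0.153 (FDR 0.0351) per the authors' deposited table. DLX2, a forebrain homeobox gene, rose from 316 and 305 to 641 and 861 depth-corrected reads (edgeR adjusted p = 0.000141). Its FDR was 0.0178 per the authors' deposited table. In the early embryo list of 22 genes OTX2, SALL3, ZIC5 and DPPA4 fell (18.2%), at 0.339, 0.39, 0.774 and 0.813 per the authors' deposited table. KLF5 and DPPA2 rose (9.09%), at 1.59 and 13.7 per the authors' deposited table. DPPA2, with 1328 total reads, passed the minimum on reads only through the SMARCA4-null group. Among 25 HOX genes 4 fell (16%) and 2 rose (8%). HOXA5 fell from 923 and 908 to 355 and 403 depth-corrected reads (edgeR log2 change -1.27 ± 0.16, adjusted p = 8.73e-05). HOXA7, HOXA9 and HOXA10 fell to 0.512 (FDR 0.0176), 0.75 (FDR 0.0475) and 0.449 (FDR 1.1e-05) per the authors' deposited table. HOXA13 rose to 1.5 (FDR 0.0105) and HOXD13 to 1.9 (FDR 0.0499) per the authors' deposited table. The antisense gene HOXA-AS3 fell to 0.36 (FDR 5.14e-10) per the authors' deposited table, and since the labels do not say whether counting used strand, its reads may include those of the genes opposite. Of 414 ZNF genes 23 rose and 31 fell (5.56% and 7.49%), and of 79 mitochondrial ribosomal protein genes 1 rose and 1 fell.

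Ratios near 0 partly rest on few wildtype reads. FOXA2, an endoderm factor gene, was not among the recovered genes and had implied levels of 6.11 in wildtype and 0.0113 in the SMARCA4 null. The lowest wildtype level that its total and ratios allow is 5.45, and against that level, with 3 reads as the limit over the null group, it was at least 3.78-fold lower. AMBN, an enamel matrix gene, held 6.75 and 9.24 depth-corrected wildtype reads and 0 in both null libraries, and was at least 5.53-fold lower. TNFAIP6 held 6.75 and 1.15 in wildtype and 0 in both null libraries, at least 2.74-fold lower, with an edgeR adjusted p of 0.0617. These 3 genes pass the threshold on total reads through other null lines, where the ratios were 37.7, 78.4 and 513 in the SMARCB1 null per the authors' deposited table. PROC, SLC2A5, DPPA2 and S100A4, for example, would fall short of it without their SMARCA4-null reads. HPGD, MME, NPY1R, TCF15 and HOXA-AS3 would fall short of it without their wildtype reads. The changes of such genes, and any FDR given with them, are descriptions only. Over all members, 245 had under 100 implied reads in the wildtype and SMARCA4-null libraries together, and 6 of them were called.

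Of the 2031 recovered genes with a mean of at least 100 depth-corrected reads, 9 differed over 2-fold between the 2 SMARCA4-null libraries and 0 between the 2 wildtype libraries. The 7 described here are those with at least 20 depth-corrected reads in the higher null library. NOTCH3, a Notch receptor gene, held 10212 and 5164 depth-corrected wildtype reads, 556 in the deeper null library and 19593 in the shallower. BMP7, a BMP ligand gene, held 248 and 189 in wildtype and 5432 and 492 in the null. The group ratios, 1.31 for NOTCH3 (FDR 0.161) and 13.6 for BMP7 (FDR 0.393) per the authors' deposited table, thus describe neither library. QPRT went from 209 and 178 to 498 and 1864 depth-corrected reads, and SYT11, a synaptotagmin gene, from 382 and 290 to 1667 and 5229. These 2 were the called genes among the 7, with FDR of 0.0223 and 0.0261 per the authors' deposited table and edgeR adjusted p of 0.101 and 0.138. The other 3 were HOXC10, PRKCH and TRIML2. The 7 were chosen after their values were seen, by the difference between the null libraries, and which guide each library came from cannot be told from these values.

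**Figure D5:**
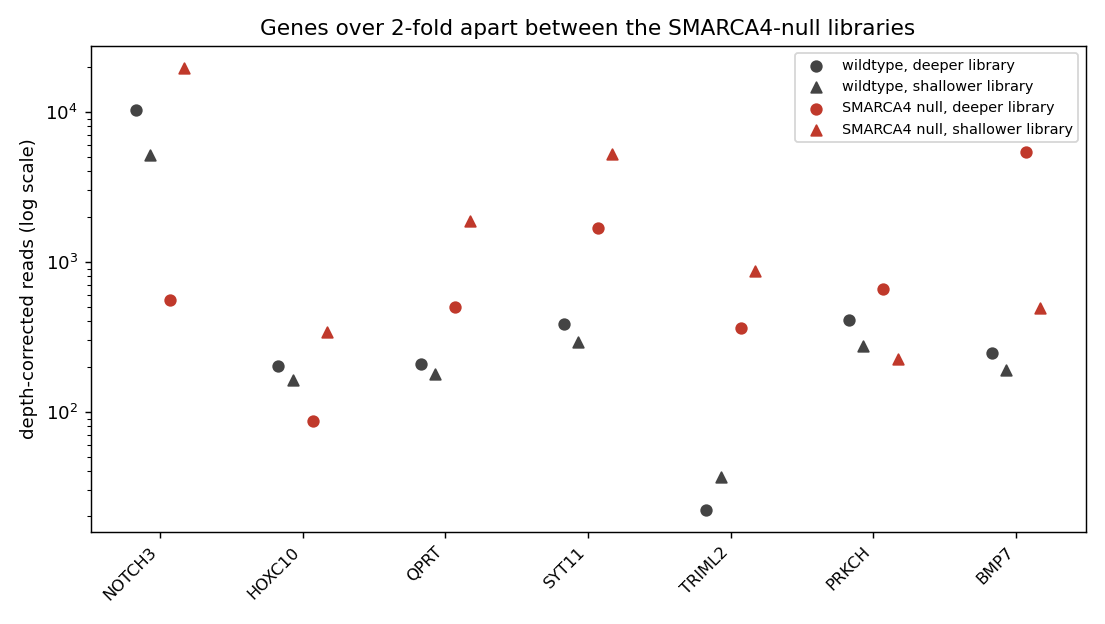
Depth-corrected reads, on a log axis, of the 7 genes in which the 2 SMARCA4-null libraries (red) differ over 2-fold, with the 2 wildtype libraries dark and circles for the deeper library of each pair. For NOTCH3 the null libraries stand at 556 and 19593, below and above the wildtype values of 10212 and 5164.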

How the data were processed

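HAP1 wildtype, SMARCA4_Null, SMARCB1_Null and SMARCB1-SMARCA4_Null cells, 2 samples each, were sequenced with a stranded mRNA kit, per the labels' protocols. STAR and Partek 4.0 with the hg19 build are named in the submitters' processing notes. The authors deposited, per gene, an estimated count of reads summed over 8 libraries, which is not always whole, the ratio of each null to wildtype, a p-value and an FDR, in a full table and a shorter table of 409 genes. A signed fold change, a score that turns ratios below 1 into negative reciprocals, is also in the authors' deposited tables. Their normalization, test and annotation: not given in the sources used here. Their FDR equals the Benjamini-Hochberg adjustment of their p-values over 19541 genes.

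What was computed here: the ratios follow from whole reads per library, plus a constant of 1 in both groups, and a lattice search recovered the whole reads of 2124 of the 4918 genes with 1000 or more reads whose totals were whole within 0.001 (43.2%), with 0 solutions when the ratios were slightly shifted. Genes with many reads were solved less often. The recovery and the edgeR fit were tested on simulated data. edgeR 4.0.16 in R 4.3.3 tested the recovered reads of all 8 libraries, with library sizes from the authors' scaling and the usual filter on low counts; DESeq2 1.42.0 was the alternative. With 2 libraries per group, and no statement that the wildtype passages were separate cultures, the p-values reflect only the spread among these libraries, which may be technical. Reads without molecular identifiers are not independent molecules. Genes named in the text are those of the largest ratios, smallest FDR and most reads, and those leading each list, unless said otherwise, and a few of them are not reported here. Gene lists and members were chosen with earlier results of these data known. Alternatives are given in the closing section. Symbols that had been turned into dates (27) and repeated symbols affected 21 members, of which 0 were called.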

Additional observations from a re-analysis of the deposited data

Results flagged for a closer look

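Of 2097 recovered genes tested with edgeR in both the SMARCA4 and the SMARCB1 null, 14 were called in opposite directions with a called difference between the nulls, and 2 of these belong to the genes named by rule. Both comparisons share the wildtype libraries. AMBN, an enamel matrix gene, differed by -12.3 on the log2 scale between the SMARCA4 and the SMARCB1 null in the fitted values. It passed the minimum of total reads through the lines where it is high, the SMARCB1 null among them, so this difference was fixed by that minimum and no test is given. With 0 reads in both SMARCA4-null libraries the fitted value also depends on the prior count and is no bound. KCNH3, a potassium channel gene, differed by 1.89 (edgeR adjusted p = 1.75e-05). Its log2 changes were 0.69 ± 0.185 in the SMARCA4 null and -1.20 ± 0.189 in the SMARCB1 null, with ± derived from F as above. Its ratios in the authors' deposited table were 1.61 and 0.435.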

How the results depend on the processing

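The counts of 1120 genes higher and 729 lower in the authors' deposited table stayed within 1.5 times under 8 of 9 settings each, among them other minimums of total reads, other FDR thresholds and centring on the median. None of the 9 changed the authors' normalization or p-values. Centring moved only the cut of direction, and 0 date or repeated symbols were called, so those settings could change little. Other scaling was tried on recovered genes alone, where TMM gave 249 higher and 234 lower. Asking for at least 2-fold left 342 higher and 172 lower. For the recovered genes, against 303 higher and 182 lower with edgeR, the authors' deposited FDR gave 192 and 117, DESeq2 gave 316 lower, the 4 libraries alone gave 473 and 314, and without the filter on low counts 109 were lower; the last pair of settings was chosen after seeing the data. Leaving out 1 library gave 48 to 87 higher and 20 to 32 lower, where the lone library of a pair is assumed to vary like those of the other groups. TMM scaling shifted the median log2 change of the recovered genes by -0.06, and DESeq2 scaling by -0.07. Of the 30 named genes with recovered reads, 26 were also called by edgeR and 4 were not (SCD, PRDX6, TNFAIP6 and MGAT4C). Naming by large ratio or small FDR favours such agreement, so it does not describe all called genes. Some called genes that were not named, such as STT3B and PER2, were not called by edgeR. Agreement over all 309 recovered genes with calls was not counted. The shorter deposited list of genes held 47 named genes and called 46 of them, SESN1 being the other. Among lists with at least 3 calls in a direction, an FDR under 0.01 changed genes higher from 9 to 5 for antigen presentation, 7 to 4 for glycolysis, 10 to 6 for fatty acids, 5 to 3 for Polycomb and trithorax, 6 to 1 for lineage factors, and 4 to 1 each for TGF-beta and BMP, for matrix and for the respiratory chain beyond complex I. It changed genes lower from 5 to 2 for collagens and for matrix, 4 to 2 for HOX and 3 to 1 for Notch. Over all 13459 genes the same threshold changed genes higher from 1120 to 796 and genes lower from 729 to 517. A minimum of 5000 total reads, which tests fewer genes, took genes higher from 3 to 0 for ERK feedback and for interferon and NF-kB (6 without a minimum), 23 to 12 for ZNF, 15 to 3 for antisense genes (lower, 10 to 2) and 5 to 3 for LINC genes. The cause of these differences was not tested. No paired analysis was possible because the deposited columns carry no replicate letters and the recovered libraries cannot be tied to them. Depth limits the genes with few wildtype reads, and reads of single libraries are known for 2124 of 13459 genes.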
